A study of Mus musculus with 6 samples.

Results

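The genes examined were 8 markers of mural cells, the pericytes and smooth muscle cells that wrap the endothelial tube of brain vessels. They were chosen by name: Rgs5, Vtn, Pdgfrb, Abcc9 and Notch3 were taken as genes of pericytes, and Acta2, Tagln and Myh11 as genes of smooth muscle. Notch3 and Pdgfrb are also used by smooth muscle cells, so that this division is a convention. All 8 were among the 15388 genes of the deposited table, and all 8 passed the filter on low reads, which left 15344 genes tested.

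RNA came from hippocampi of 3 mice, numbered 201, 207 and 208, with the genotype Cx3cr1-cre/ERT2+; NuTRAP+ and induced with tamoxifen (Tam). According to the methods of the study the mice carried 1 copy of each transgene and were about 3 months old, and both sexes were used in the study. Cre recombinase fused to a modified estrogen receptor was expressed under Cx3cr1, a gene of microglia and other brain macrophages, and after Tam it switched on the NuTRAP reporter, which tags ribosomes with GFP. Each mouse gave 2 libraries. Input was part of the cleared homogenate and held RNA of all cells, and Positive was RNA bound to ribosomes that anti-GFP antibody pulled down (translating ribosome affinity purification, TRAP). All 6 libraries thus carried the same transgenes and treatment, the groups differed by fraction only, and no Cre-negative pulldown was analysed here.

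Pericytes sit on capillaries and smooth muscle cells on arterioles, where they set vessel tone and help to keep the blood-brain barrier. Endothelial cells recruit them by releasing PDGF-B, which binds the receptor tyrosine kinase encoded by Pdgfrb, and endothelial Notch ligands act on Notch3 to keep smooth muscle mature. The study used the Cx3cr1 line to label microglia, and neither of these cell types was its target. The question for these genes was whether a pulldown aimed at microglia kept, lost or gained mural RNA relative to the homogenate of the same animal. Both fractions of an animal came from the same homogenate, so a difference between them is not a difference in the number of cells. Between animals, fewer cells of a type and less RNA per cell cannot be told apart in such bulk RNA.

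The libraries held 14879734 to 17757918 reads. Values are scaled reads, that is, deposited reads over the size factor of their library, and differences are log2 fold changes of Positive over Input with their standard error (SE). Over all genes tested 46.0% were called at an edgeR adjusted p-value under 0.05, 24.0% higher and 22.0% lower in Positive. Microglial markers were enriched, with 12 of 12 higher and a median log2 fold change of 4.66. The Positive library of animal 208 stood apart, with lower ratios than the other animals for endothelial, glial and mural genes.

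Of the 8 mural genes, 1 was higher and 0 were lower in Positive, where 24.0% and 22.0% of all genes were called. The median log2 fold change of the 8 was -0.24, against -0.01 over all genes tested. Leaving out 1 library at a time gave medians of -0.30 to 0.035, and the sign turned without the Positive library of animal 208. At an unadjusted p-value under 0.05 there were 2, Myh11 and Rgs5 (53.2% of all genes), and DESeq2 also called 1 of the 8 (43.5% of all genes), as did total count scaling (47.7% of all genes). The 7 genes that were not called lay between -0.34 and 0.42, and their 95% intervals lay between -1.01 and 0.80. Changes within these intervals were not resolved with 3 animals.

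**Figure D1:**
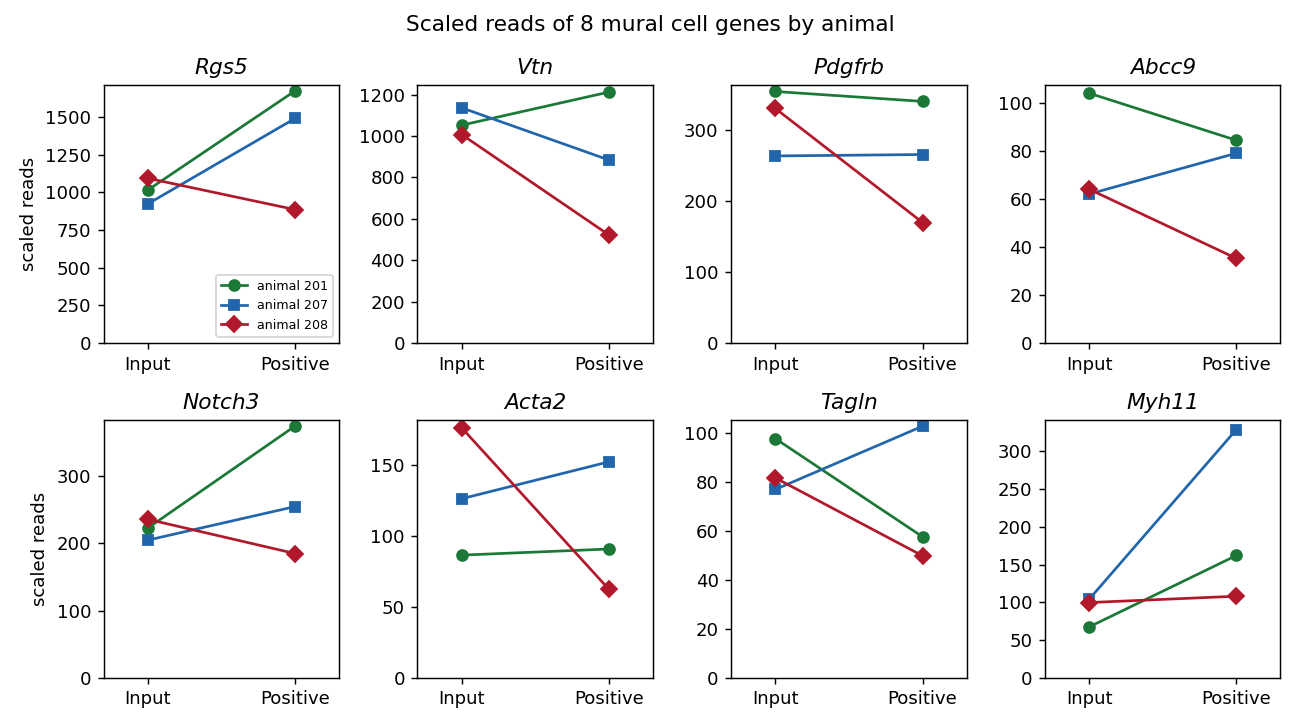
Scaled reads (vertical axes, linear from 0) of the 8 mural genes in Input and Positive, with 1 line per animal joining the libraries of that animal. For 7 genes the groups overlap, Myh11 is the gene whose Positive values all lie above its Input values, and the line of animal 208 ends lowest in all 8 panels.

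Rgs5 encodes a regulator of G-protein signaling that shortens the response of vascular cells to vasoconstrictors, and it is among the most abundant transcripts of brain pericytes. The gene lies on chromosome 1, 169655501 to 169695813, plus strand (mm10). Its scaled reads were 1016, 924 and 1094 in the Input libraries of animals 201, 207 and 208, and 1675, 1492 and 886 in the Positive libraries. Positive was above every Input value in 2 animals and below every Input value in animal 208. The log2 fold change was 0.42 ± 0.17 (SE), or 1.34-fold (edgeR adjusted p = 0.067). A paired fit, in which each animal was a replicate block, gave 0.38 (edgeR adjusted p = 0.0424), which passed the threshold, so that 2 of the 8 genes were called in a fit that called 49.3% of all genes. Without both libraries of animal 208 the value was 0.71 (edgeR adjusted p = 9.69e-05) in 2 animals per fraction.

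Vtn encodes vitronectin, an adhesive protein of plasma and matrix that brain pericytes make and that binds integrins through an RGD motif. It lies on chromosome 11, 78499091 to 78502324, plus strand. Input held 1052, 1136 and 1007 scaled reads in animals 201, 207 and 208, the narrowest spread of the 8 genes on the log2 scale, with an SD of 0.09. Positive held 1212, 884 and 522. Positive lay above every Input library in animal 201 and below every Input library in animals 207 and 208, with log2 ratios of 0.20, -0.36 and -0.95 in animals 201, 207 and 208. The log2 fold change was -0.29 ± 0.21 (SE, edgeR adjusted p = 0.278). Without the Positive library of animal 201 it was -0.60 (edgeR adjusted p = 0.0121), and without that of animal 208 it was -0.02.

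Pdgfrb encodes the receptor through which PDGF-B holds pericytes on the vessel, and lies on chromosome 18. It had 355, 264 and 331 scaled reads in Input and 341, 266 and 170 in Positive of animals 201, 207 and 208. In the first 2 of these animals the fractions were level, with log2 ratios of -0.06 and 0.01, and in animal 208 the ratio was -0.96. The log2 fold change was -0.29 ± 0.21 (SE, edgeR adjusted p = 0.275). Without the Positive library of animal 201 it was -0.53 (edgeR adjusted p = 0.0457), and without that of animal 208 it was -0.06. The fit without the Positive library of animal 201 called 3 of the 8 genes (Vtn and Pdgfrb lower, Myh11 higher) and 41.3% of all genes.

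Notch3 encodes a Notch receptor found mainly on mural cells, and lies on chromosome 17, 32120820 to 32166880, minus strand. Input held 223, 205 and 236 scaled reads and Positive 375, 255 and 185 in animals 201, 207 and 208. Notch3 thus followed the order of Rgs5, above Input in animals 201 and 207 and below it in animal 208. The log2 fold change was 0.30 ± 0.21 (SE, edgeR adjusted p = 0.264). It was 0.51 without the Positive library of animal 208 (edgeR adjusted p = 0.0204), and -0.01 without that of animal 201.

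Abcc9 encodes SUR2, the regulatory subunit of the ATP-sensitive potassium channel of mural cells, and lies on chromosome 6, 142587862 to 142702315, minus strand. Its scaled reads were 104, 62 and 64 in Input and 84.4, 79 and 35.2 in Positive of animals 201, 207 and 208. With few reads per library its log2 fold change of -0.21 ± 0.32 (SE) was the least precise among the pericyte genes, and its sign turned when the Input library of animal 201 or the Positive library of animal 208 was left out (0.08 and 0.09). Its edgeR adjusted p-value was 0.624.

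The smooth muscle genes encode the contractile machinery. Acta2, for the smooth muscle alpha-actin, lies on chromosome 19, 34241090 to 34255336, minus strand. It had 86.3, 126 and 176 scaled reads in Input and 90.6, 152 and 62.3 in Positive of animals 201, 207 and 208. Among the 3 Input libraries alone Acta2 varied most of the 8 genes, with an SD of 0.51 on the log2 scale, and the library of animal 208 was the highest in Input and the lowest in Positive. Its log2 fold change was -0.34 ± 0.31 (SE, edgeR adjusted p = 0.394), and it was 0.20 without both libraries of animal 208.

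Tagln encodes transgelin, an actin-binding protein of differentiated smooth muscle, and lies on chromosome 9, 45929619 to 45936058, minus strand. Its scaled reads were 97.9, 77.1 and 81.8 in Input and 57.7, 103 and 49.9 in Positive of animals 201, 207 and 208. Here animal 207 was the animal that stood above its Input, and Tagln was the single gene of the 8 whose ratio was not lowest in animal 208. The log2 fold change was -0.28 ± 0.27 (SE, edgeR adjusted p = 0.423). Without the Positive library of animal 207 it was -0.67 (edgeR adjusted p = 0.048). Exons of Tagln overlap those of Pcsk7 by 108 bases and those of the antisense gene Gm48529 by 1241 bases, both on the opposite strand. Antisense genes also overlap exons of Notch3 (Gm17276, 488 bases) and Abcc9 (5330439B14Rik, 158 bases). Alignment by the authors used strand.

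Myh11 encodes the smooth muscle myosin heavy chain, the motor of contraction and among the most specific markers of smooth muscle, and lies on chromosome 16, 14194527 to 14291408, minus strand. It had 67.3, 104 and 99.6 scaled reads in Input and 162, 329 and 108 in Positive of animals 201, 207 and 208. All 3 Positive values exceeded all 3 Input values, and Positive exceeded Input within each animal, although in animal 208 the log2 ratio was 0.12 against 1.25 and 1.65 in animals 201 and 207. The log2 fold change was 1.14 ± 0.33 (SE), or 2.21-fold with a 95% interval of 1.34 to 3.64, and the edgeR adjusted p-value was 0.0137. The call was lost without the Input library of animal 201 (0.97, edgeR adjusted p = 0.0704) and without the Positive library of animal 207 (0.57, edgeR adjusted p = 0.0897). The latter fit called 1 of the 8, Tagln, and 38.5% of all genes. No other gene of the 8 had groups that did not overlap, where 56.5% of all genes tested had such groups, or the same direction in all 3 animals, where 70.5% of all genes had it.

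**Figure D2:**
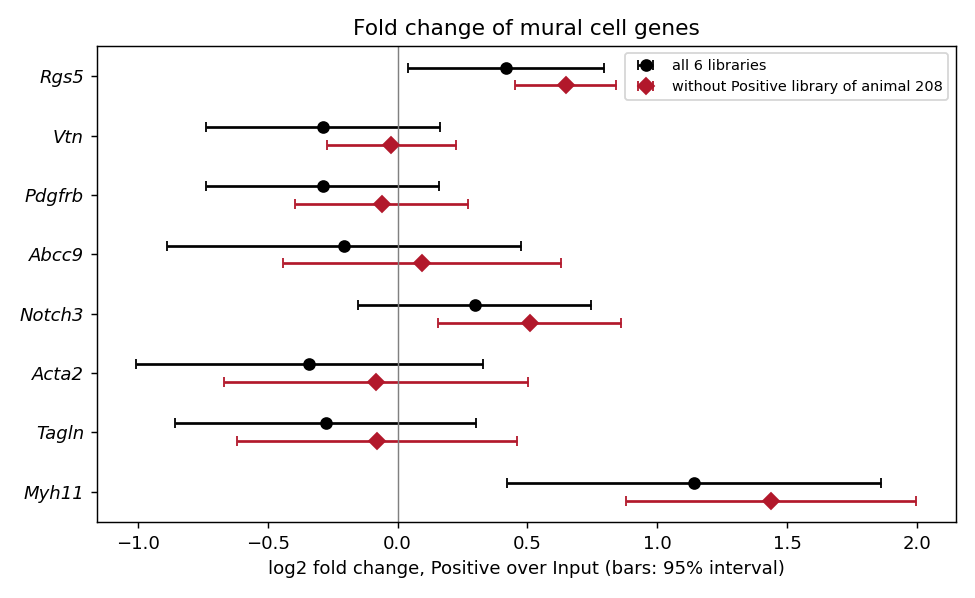
Log2 fold change of Positive over Input with 95% intervals for the 8 genes, with all 6 libraries (black circles) and without the Positive library of animal 208 (red diamonds). With all libraries the intervals of Myh11 and Rgs5 lie above 0, and only Myh11 passed after adjustment, whereas without that library Rgs5, Notch3 and Myh11 passed.

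Part of the coding sequence of Myh11 is almost the same as that of Myh9, which encodes a nonmuscle myosin heavy chain, and Myh9 was both more abundant and enriched. The stretches are shown because reads from them could be placed on either gene. They lie in exon 13 of both transcripts, at chr16:14232550-14232695 (Myh11) and chr15:77786512-77786657 (Myh9), both on the minus strand of GRCm38 (mm10), and are taken from the GENCODE M21 transcripts. Over 146 bases they differ at the 2 positions in capitals, G66C and A87G, with the base of Myh11 first and positions counted from the first base shown.
Myh11: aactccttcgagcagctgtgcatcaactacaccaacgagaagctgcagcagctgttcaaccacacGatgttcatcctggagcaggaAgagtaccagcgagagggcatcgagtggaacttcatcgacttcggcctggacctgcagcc
Myh9: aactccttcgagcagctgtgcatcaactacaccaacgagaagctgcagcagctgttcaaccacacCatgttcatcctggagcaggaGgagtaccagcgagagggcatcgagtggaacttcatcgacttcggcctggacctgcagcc

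Of the 105 windows of 42 bases in this stretch, the length of a read after trimming, 42 were identical between the transcripts. Over all its transcripts 0.55% of the windows of Myh11 were shared with another gene. Myh9 had scaled reads of 2193 ± 18.5 (Input) and 6302 ± 1321 (Positive, SD, n = 3), a difference of 1.52 on the log2 scale. With even coverage of the Myh9 transcript, 11.8 to 13.2 deposited reads in Input and 26.9 to 46.1 in Positive would fall in the shared windows. When these were taken from the reads of Myh11, its log2 fold change was 1.07 (edgeR adjusted p = 0.0342), and the reads left in animal 208 were 83.2 in Input and 77.1 in Positive. This fit was added after seeing the data. How the shared reads were in fact assigned was not tested. Of the other members, Abcc9 shared 0.887%, Acta2 0.696% and Notch3 0.284% of their windows with other genes, and Rgs5, Vtn, Pdgfrb and Tagln shared 0. Only identical windows were counted as shared, and alignment by the authors allowed some mismatches. These shares, and the Myh9 reads taken from Myh11, could thus be too low. Reads were sequenced in pairs, and a mate outside the shared windows could place a read, so that the same values could also be too high.

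Levels of different genes were compared per kilobase of exon. In Input, Vtn was highest at 524.5 ± 32.3 scaled reads per kb and Rgs5 next at 222.5 ± 18.7 (SD, n = 3), with no overlap between them. Acta2 (59 ± 20.5), Pdgfrb (57.9 ± 8.62) and Tagln (43.1 ± 5.5) followed, and neighbours in this order overlapped. Notch3 came below at 27.3 ± 1.93, apart from Tagln above and Myh11 below it. Myh11 (11.9 ± 2.65) and Abcc9 (9.16 ± 2.83) were lowest and overlapped. In Positive the order of Vtn (429.9 ± 170) and Rgs5 (297.2 ± 90.8) was kept, but their ranges overlapped, and Myh11 at 26.2 ± 15.1 overlapped with Tagln, Notch3, Pdgfrb and Acta2.

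**Figure D3:**
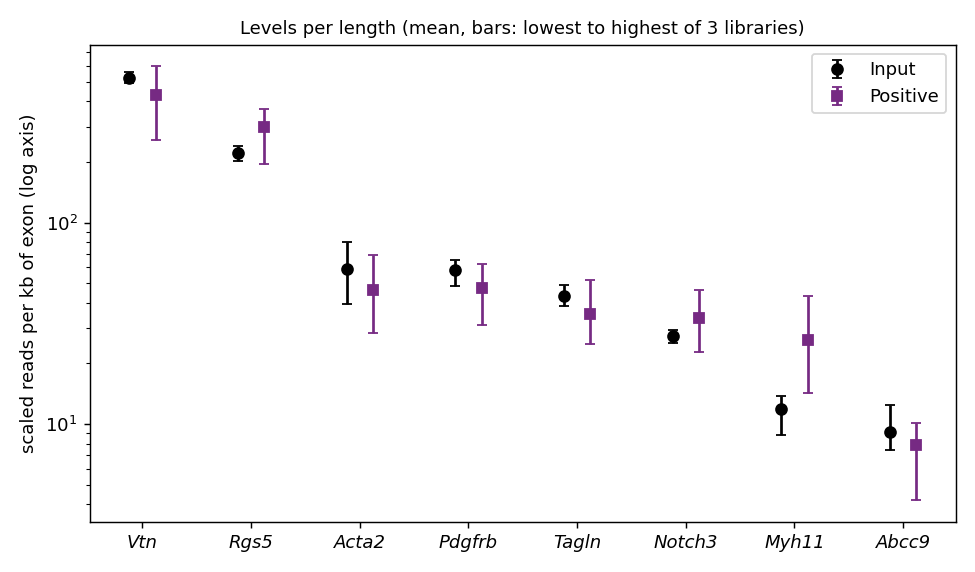
Scaled reads per kb of exon (log axis) of the 8 genes in Input and Positive, ordered by the Input level, with the mean of 3 libraries as points and the lowest and highest library as bars. Vtn and Rgs5 are highest in both fractions, and on this axis the bars are longer in Positive than in Input for all 8 genes.

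The mural genes spread more between animals in Positive than in Input. The SD of log2 scaled reads was larger in Positive for all 8 genes, against 61.0% of all genes tested. The median SD of the 8 was 0.20 in Input and 0.58 in Positive, and over all genes it was 0.12 and 0.15. Other vascular lists had median SDs of 0.17 and 0.54 (endothelial), 0.26 and 0.43 (other pericyte), 0.16 and 0.48 (other smooth muscle) and 0.29 and 0.59 (border macrophage) in Input and Positive. The summed reads of the 5 pericyte genes were 2750, 2592 and 2732 in the Input libraries of animals 201, 207 and 208, within a narrow range, but 3687, 2976 and 1798 in Positive. For the 3 smooth muscle genes the sums were 251.6, 307.3 and 357.7 in Input and 310, 584.2 and 220.2 in Positive. Animal 208 thus had the lowest Positive sum of both groups of genes.

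For 7 of the 8 genes the ratio of Positive to Input was lowest in animal 208, against 40.4% of all genes tested. The median log2 ratio of the 8 genes was 0.14 in animal 201, 0.33 in animal 207 and -0.78 in animal 208. Several other cell types moved with it, but not all. The ratio was lowest in animal 208 for 16 of 16 endothelial, 12 of 12 microglial, 8 of 8 astrocyte and 7 of 8 oligodendrocyte markers. It was lowest there for 0 of 8 neuronal and 0 of 5 erythroid markers. The part of this library in the mural values was not tested beyond leaving it out. Without its Positive library 3 of the 8 genes were called, all higher, against 47.3% of all genes in that fit. Without both libraries of animal 208, a fit chosen after seeing the data, 3 of the 8 genes were called (Rgs5, Notch3 and Myh11, all higher), against 39.4% of all genes in that fit, and the median log2 fold change of the 8 was 0.09.

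**Figure D4:**
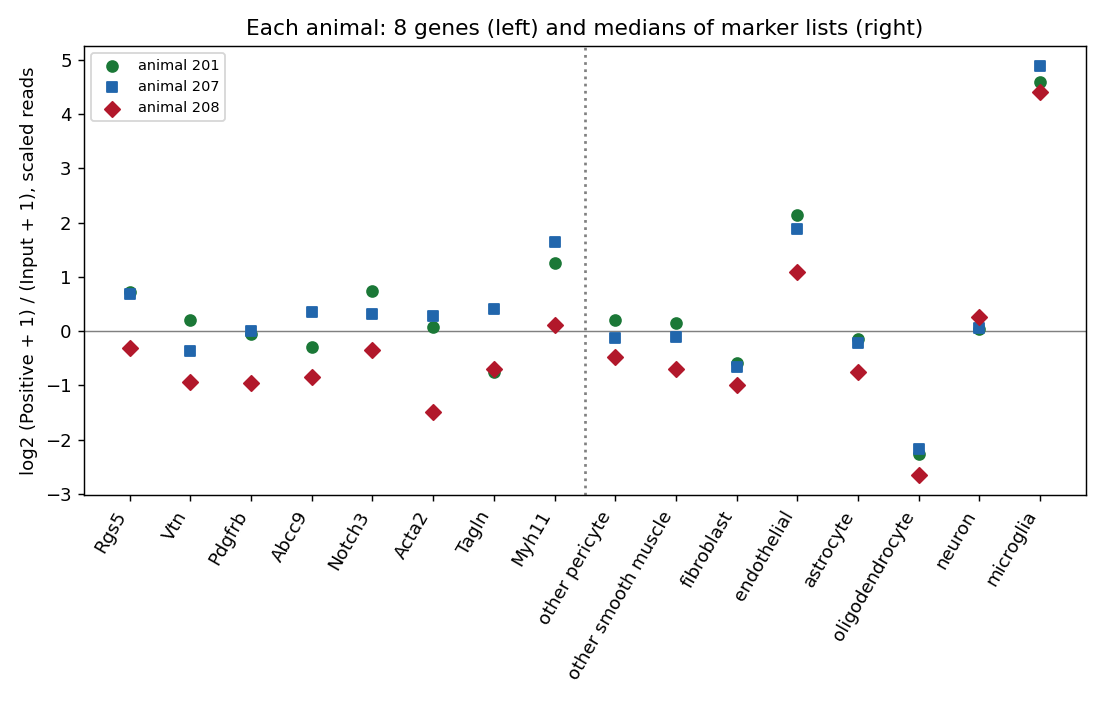
Log2 ratio of Positive over Input (scaled reads plus 1) in each animal, for the 8 genes at left and as medians of marker lists at right. The values of animal 208 (red diamonds) lie lowest in 7 of the 8 genes and in the medians of all lists shown but neurons, while endothelial and microglial medians lie above 0 in all 3 animals.

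Ratios between 2 mural genes within a library do not depend on the scaling. All 28 ratios among the 8 genes were computed from the deposited reads, and 11 (39.3%) had groups that did not overlap between fractions. Of ratios of a mural gene to any other gene tested, computed from scaled reads plus 1, 28.5% had such groups. The 28 ratios share genes and are not independent, and most of the 11 held Rgs5 or Myh11. With 3 libraries per fraction an exact permutation test (two-sided) cannot fall below 0.1, so that it could not pass any ratio. After adjustment over the 28 ratios the smallest value was 0.255, and the values are given as a description. Rgs5 over Pdgfrb was 2.86, 3.5 and 3.3 in Input and 4.91, 5.61 and 5.2 in Positive of animals 201, 207 and 208. This ratio was higher by a mean of 0.71 ± 0.07 on the log2 scale (SD, n = 3), with 0.78, 0.68 and 0.66 in animals 201, 207 and 208, although both genes were low in the last. Rgs5 over Notch3 was 4.51 to 4.64 in Input and 4.47 to 5.86 in Positive, and these groups overlapped. Vtn over Notch3 was lower in Positive in each animal, with a mean log2 difference of -0.61 ± 0.06 (SD, n = 3). Acta2 over Myh11 was 1.28, 1.21 and 1.77 in Input and 0.561, 0.464 and 0.577 in Positive, a mean log2 difference of -1.40 ± 0.21 (SD, n = 3), with the limit on Myh11 reads given above. Acta2 over Tagln changed by 0.83, -0.15 and -0.79 in the 3 animals and had no common direction.

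Other mural markers were counted over lists that do not hold the 8 genes. Of 18 further pericyte genes 15 were tested, and 0 were higher and 3 lower, with a median log2 fold change of 0.02. The 3 were Cspg4 (-1.08), Mcam (-1.10) and Zic1 (-0.95), with edgeR adjusted p-values of 0.000449, 0.00041 and 0.028. Cspg4, for the proteoglycan NG2, is also a gene of oligodendrocyte precursors. A list of these, which holds Cspg4 itself, had 6 of 6 genes lower with a median of -1.77. Of the 12 pericyte genes that were not called, Ndufa4l2 (-0.43), Anpep (-0.37), Tbx18 (-0.33) and Higd1b (-0.24) lay below 0. The others were Foxf2 (0.65), Kcnj8 (0.60), Ecm2 (0.22), Gjc1 (0.17), Foxc1 (0.12), Atp13a5 (0.09), Art3 (0.07) and Cd248 (0.02). Higd1b had 27.7 ± 6.14 scaled reads in Input (SD, n = 3). Without the Positive library of animal 208, 2 of the 15 pericyte genes were called higher.

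Of 20 further smooth muscle genes 12 were tested, and 0 were higher and 3 lower, with a median log2 fold change of -0.18. The median was -0.29 to 0.051 with 1 library left out, and without the Positive library of animal 208 2 genes were called higher. Ppp1r14a, for an inhibitor of myosin phosphatase that oligodendrocytes also express, was lower, with a log2 fold change of -2.67 (edgeR adjusted p = 9.64e-08). Itga8 had -0.75 and Tpm1, for a tropomyosin, -0.28, with edgeR adjusted p-values of 0.0005 and 0.0144. The regulatory light chain gene Myl9 had -0.20, Mylk -0.16, Cald1 -0.10 and Smtn 0.31, and none of these passed. The remaining genes of the list were not called either, with Sncg (0.50), Crip1 (0.35) and Synpo2 (0.32) above 0 and Des (-0.91) and Tpm2 (-0.50) below. Among nonmuscle relatives of the contractile members, Actb was higher by 0.94, Tagln2 by 1.48 and Myh9 by 1.52, all in 3 of 3 animals, whereas Actg1 (0.07), Tagln3 (-0.05) and Myh10 (0.19) were not called. Of the regulators of contractile genes, 5 of 9 listed symbols were tested. Mef2c, which microglia and neurons also use, was higher by 0.78, Mkl1 by 0.23 and Mkl2 by 0.27, Tead1 was lower (-0.55), and Srf (-0.15) was not called. Under total count scaling 1 of the 5 was called higher and 2 lower.

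Partners of the mural receptors were examined next. Pdgfb, the ligand of the Pdgfrb receptor, had scaled reads of 543.9 ± 24.8 (Input) and 1081 ± 77.8 (Positive, SD, n = 3), a difference of 0.99 on the log2 scale (edgeR adjusted p = 1.71e-06). Reads of Pdgfrb over those of Pdgfb were 0.69, 0.472 and 0.595 in the Input libraries and 0.31, 0.232 and 0.171 in the Positive libraries, lower in Positive in all 3 animals. The other genes of the family were Pdgfra, the receptor of oligodendrocyte precursors and fibroblasts (-1.67), Pdgfa (-0.75) and Pdgfc (-0.95), all lower, and Pdgfd (-0.35), which was not called.

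Of 7 other Notch ligands and receptors tested, 2 were higher and 0 lower. Both are genes of endothelial cells, the receptor Notch4 with a log2 fold change of 1.46 and the ligand Dll4 with 1.72, and edgeR adjusted p-values of 0.000114 and 0.000278. Jag1 had 0.45, Notch1 0.18, Notch2 0.11, Jag2 0.13 and Dll1 -0.30, and these were not called. Of 9 targets and cofactors 3 were higher and 3 lower. The target genes Hes1 (-0.71), Hes5 (-0.87) and Nrarp (-0.90) were lower, the cofactors Rbpj (0.67), Maml1 (0.53) and Maml2 (0.91) were higher, and the vascular targets Heyl (-0.09), Hey1 (-0.21) and Hey2 (-0.43) were not called.

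The potassium channel of mural cells pairs SUR2 with Kir6.1, encoded by Kcnj8. Scaled reads of Kcnj8 were 39.8 ± 7.81 (Input) and 60.9 ± 28.9 (Positive, SD, n = 3), and its log2 fold change of 0.60 was not called. Abcc9 over Kcnj8 changed by -1.49, 0.20 and -1.11 on the log2 scale in animals 201, 207 and 208, and so did not move in 1 direction. The neuronal and endocrine subunits Abcc8 and Kcnj11 had -0.31 and -0.21, and the former passed (edgeR adjusted p = 0.0319). This call was lost without the Input library of animal 201 or 208 or the Positive library of animal 207 or 208 (edgeR adjusted p = 0.0717 to 0.103). Among relatives of Rgs5, Rgs2 was higher by 1.77, and Rgs3 (-0.05), Rgs4 (-0.09), Rgs8 (-0.10) and Rgs16 (-0.01) were not called. Rgs1, a gene of immune cells, had 0 reads in every Input library and passed the filter on low reads only through Positive. It was at least 14-fold higher in Positive, against a floor of 3 reads per library.

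Vitronectin is bound by integrins and by the urokinase receptor. Of 6 such receptor genes tested, 5 were higher and 0 lower, with a median log2 fold change of 1.79. Itgb5 had scaled reads of 955.3 ± 41.3 (Input) and 9831 ± 2121 (Positive, SD, n = 3), a difference of 3.36 on the log2 scale. Itgb3 was higher by 2.86, Itgb1 by 1.5 and their partner Itgav by 0.37. Plaur, the urokinase receptor, was higher by 2.08, from few reads in Input (9.91 ± 3.9, SD, n = 3). Plaur passed the filter on low reads only through Positive, so that the filter partly set its place among the higher genes. Itgb8 had -0.19 and was not called. Integrins of this group are also genes of microglia and macrophages.

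The mural genes were set beside the other cells of the vessel wall. Endothelial markers were higher in 16 of 16 genes, with a median log2 fold change of 1.76 and summed scaled reads of 3989 to 4295 in Input and 8577 to 17223 in Positive. Markers of perivascular fibroblasts were lower in 6 of 8 genes tested and higher in 0, with a median of -0.73. The lower genes included Col1a2 (-1.16), Dcn (-0.74) and Pdgfra (-1.67), which is also a gene of oligodendrocyte precursors. The sums of this list were 4101 to 4438 in Input and 1692 to 2590 in Positive. Border macrophages, which lie along vessels and express Cx3cr1, were higher in 7 of 7 genes, with a median of 4.15. Their sums were 198 to 255 in Input and 2645 to 5789 in Positive. Lyve1, Pf4 and Ms4a7 among them passed the filter on low reads only through Positive, so that the filter partly set this count. The sums of the 8 mural genes, 2899 to 3090 in Input and 2018 to 3997 in Positive, overlapped between the fractions. Within each animal the median log2 ratio of the mural genes (0.14, 0.33 and -0.78) was below that of the endothelial list (2.15, 1.88 and 1.09) and, in animals 201, 207 and 208 alike, above that of the fibroblast list (-0.58, -0.67 and -0.98). The part of these other cells in the mural values was not tested.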

How the data were processed

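RNA sequencing of Input and Positive fractions from 3 animals (201, 207 and 208) was analysed, 6 libraries in all, grouped by the fraction label. The authors trimmed reads, aligned them by strand to mm10 in Strand NGS and counted them per Ensembl gene. The deposited raw columns are expected counts, which need not be whole. The deposited normalized columns, on a log2 scale by the authors after DESeq scaling, were not used. Each gene of the table has 20 or more reads in all libraries of 1 fraction or both, and other genes were not analysed here. No per-sample column was unmapped (0).

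Expected counts were rounded and tested by quasi-likelihood in edgeR 4.0.16 (R 4.3.3), without pairing, as the study tested, with median-of-ratios scaling, over the 15344 genes above 20 scaled reads throughout 1 fraction or both. The adjusted p-value is Benjamini-Hochberg over these genes, with a threshold of 0.05, and intervals are 95%. Ratios per animal used a pseudocount of 1, and exon lengths are from GENCODE M21 (GRCm38, the assembly of mm10). Alternatives were TMM and total count scaling, other filters, DESeq2 1.42.0, the animal as a replicate block, and each library left out. Same-numbered libraries come from the same animal, and the correlations of their deviations from the fraction means were 0.27, 0.08 and 0.15. Reads carried no molecular identifiers, and library size bounds counting error only. The test was checked on simulated data with 200 changed genes, fewer than were called here, and with the same dispersion in both fractions. The wider spread of the mural genes in Positive was not simulated.

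The members and lists were chosen with earlier results of these data known. All members were named, and of each other list up to 6 genes with the highest mean, any called against the list's median, and the 5 genes nearest to the members' median and to Rgs5 over the 3 animals. A gene of 1 list is not reported here. Others were chosen after their values were seen, as were the ratios singled out.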

Additional observations from a re-analysis of the deposited data

How the results depend on the processing

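TMM scaling, no filter and DESeq2 left each of the 8 genes on its side of the threshold and in its direction. The fit with the animal as a replicate block gave 0.38 for Rgs5 and 2 of the 8 genes called higher, and it changed no other call among the 8. In that fit 1 actin, transgelin and myosin relative and 6 astrocyte genes were called lower. Total count scaling left all calls of the 8 genes, but among regulators of contractile genes 1 was called higher and 2 lower, among vitronectin receptors and among the actin, transgelin and myosin relatives 1 each was lower, 7 astrocyte genes were lower, and the medians were -0.10 for Rgs relatives and 0.058 for the actin, transgelin and myosin relatives. Keeping only genes that averaged 100 scaled reads or more gave no value for Abcc9 and Tagln. It gave medians of -1.04 (other pericyte genes), -0.0725 (Rgs relatives) and -2.11 (choroid plexus and ependyma), with 1 Notch ligand or receptor and 1 Rgs relative called higher, since fewer genes were tested.

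Leaving out 1 library at a time gave log2 fold changes of 0.23 to 0.65 for Rgs5, -0.60 to -0.024 for Vtn, -0.53 to -0.062 for Pdgfrb, -0.41 to 0.094 for Abcc9, -0.0064 to 0.51 for Notch3, -0.76 to -0.06 for Acta2, -0.67 to -0.080 for Tagln and 0.57 to 1.44 for Myh11. Of the 8 genes 0 to 3 were then called higher and 0 to 2 lower, in fits that called 36.1% to 47.3% of all genes. Called higher were 0 to 2 other pericyte genes, 0 to 2 other smooth muscle genes, 1 to 3 regulators of contractile genes, 2 to 4 Notch ligands and receptors and 0 to 1 potassium channel genes. Called lower were 2 to 3 other pericyte genes, 2 to 4 other smooth muscle genes, 1 to 2 regulators, 2 to 3 Notch targets, 0 to 1 potassium channel genes, 0 to 1 actin, transgelin and myosin relatives, 4 to 7 fibroblast genes, 2 to 8 astrocyte genes and 4 to 6 choroid plexus and ependymal genes. Medians were -0.30 to 0.035 (the 8 genes), -0.29 to 0.051 (other smooth muscle), -0.30 to 0.09 (other pericyte), -0.094 to 0.10 (Rgs relatives), 3.73 to 4.32 (border macrophages), -2.7 to -2.06 (erythroid), -0.44 to -0.13 (Notch targets) and -0.47 to -0.16 (astrocytes). Without animal 208 in both fractions, chosen after seeing the data, Rgs5 had 0.71, Notch3 0.56 and Acta2 0.20, and 3 of the 8 genes, 1 other pericyte gene, 1 regulator and 4 Notch ligands and receptors were called higher. The medians were then 0.42 (Notch ligands and receptors) and 0.012 (Rgs relatives). Apart from the filter, the cause of these shifts was not tested. Genes under 100 reads, as Abcc9, Acta2, Tagln and Myh11 were in some libraries, are limited by depth.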

Other observations

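The genes most like the mural genes across the animals were found by the root-mean-square difference of log2 Positive over Input over 3 animals, among 12116 other genes averaging 100 scaled reads or more. Nearest to the median of the 8 were Naprt, Pomt1, Fancg, 2700049A03Rik and Gm973, with differences of 0.06 to 0.12 on the log2 scale. Nearest to Rgs5 were Lama5, Myof, Selenbp1, Rhoc and Fzd4, with differences of 0.07 to 0.12. Lama5, for a laminin chain of vascular basement membrane, had log2 ratios of 0.61, 0.70 and -0.36 in animals 201, 207 and 208, beside 0.72, 0.69 and -0.30 for Rgs5. With so many genes and 3 animals some lie near any profile, and this is a description only.

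Choroid plexus and ependymal markers were lower in 4 of 6 genes, with Ttr, for the thyroxine carrier transthyretin, at a log2 fold change of -2.21 and Kl at -1.28. Erythroid genes were lower in 5 of 5, with a median of -2.29 and Hba-a1 at -2.21, and the near-identical globin copies share reads, so that single values are uncertain.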
